A study of Mus musculus with 18 samples.

Results

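The 31 genes described here encode contractile, calcium handling and metabolic proteins of adult skeletal muscle, and they were followed in bulk RNA sequencing of mouse tumours. They were chosen by name, as genes used by skeletal muscle fibres, and not by a measured value, though earlier results of these data were known. All 31 were found among the 21015 gene identifiers of the count table. The tumours were grown from MC38-OVA cells, a mouse colon carcinoma line that carries the model antigen ovalbumin, in mice lacking the receptor gene Adra2a (KO, ADRA2A-/-) or in wild-type mice (WT). The series asked about activation of alpha-2 adrenergic receptors in tumour rejection, and clonidine and guanabenz are agonists of these receptors. The 18 libraries formed 6 groups of 3: KO-Clonidine, WT-Clonidine, KO-Guanabenz, WT-Guanabenz, KO-Control and WT-Control. Drugs, or PBS for the controls, were injected intraperitoneally every day, and the tumours were taken 7 days after treatment from mice labelled as 10 weeks old. The implanted tumour cells carried their own genome, so only host cells of the KO tumours lacked Adra2a. The labels gave neither doses nor the animals behind the libraries, so the spread that p-values rest on is that of libraries. How many animals this spread covers is not known. Y-linked levels, given below, differed widely within some groups, so the libraries of those groups were not all repeats of the same sample. The 3 libraries titled KO-Guanabenz carried the treatment entry for untreated mice; their titles were followed here, and this conflict applies to every KO-Guanabenz value. The controls also carried an untreated entry, while the protocol named PBS.

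A skeletal muscle fibre is filled with sarcomeres, in which thick filaments of myosin pull on thin filaments of actin. Thin filaments are anchored at the Z-disc, titin spans from the Z-disc to the thick filament, and troponin on the thin filament switches contraction on when calcium leaves the sarcoplasmic reticulum. Fast and slow fibres use different forms of myosin, troponin and the calcium pump. In a bulk tumour sample these transcripts are markers of host muscle, since carcinoma cells and leukocytes make little or none of most of them.

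Muscle transcripts were a trace of each library and varied strongly from library to library. The 31 genes together took 0.01003% to 0.04863% of the counts of a library, and library totals ran from 54.7 to 491.1 in units of 1e6. All 10 defining markers of skeletal muscle that had been listed (Ckm, Acta1, Tnni2, Tnnt3, Tnnc2, Myh4, Myh1, Myh2, Myl1 and Mylpf) were detected in all 18 libraries. All 31 genes passed the filter on low counts, as did 16125 genes in all. Adra2a itself was low, at 0.0917 to 0.293 CPM (counts per 1e6 counts) in the 9 KO libraries and 0.286 to 0.589 CPM in the 9 WT libraries, ranges that overlapped.

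Summed over the 31 genes, the level was 366, 269 and 154 CPM in KO-Clonidine tumours and 475, 408 and 328 CPM in WT-Clonidine tumours. It was 103, 203 and 251 CPM in KO-Guanabenz tumours and 344, 289.8 and 253 CPM in WT-Guanabenz tumours. KO-Control tumours had 280.4, 362 and 384 CPM and WT-Control tumours 379, 464 and 242 CPM. The lowest library, KO-Guanabenz 1, and the highest, WT-Clonidine 1, differed 4.64-fold. In the plot of summed level by group, the KO-Guanabenz libraries lay below all 3 KO-Control libraries, while the other group pairs compared here overlapped, except that KO-Guanabenz also lay below WT-Guanabenz. In bulk tissue, fewer muscle cells in the sample and less RNA per muscle cell cannot be told apart.

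**Figure D1:**
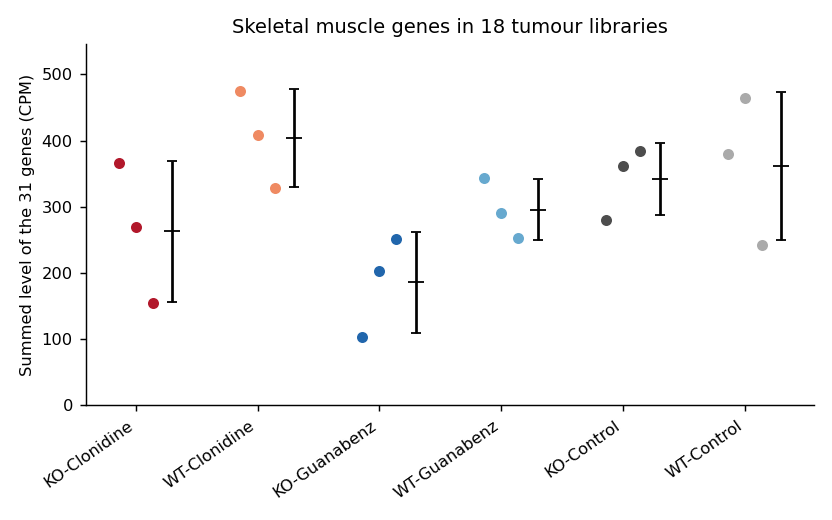
Summed level of the 31 muscle genes in CPM (vertical axis) in each of the 18 libraries, by group; points are libraries, and the black bar is the group mean with its SD (n = 3). KO-Guanabenz 1 at 103 CPM and KO-Clonidine 3 at 154 CPM are the lowest libraries.

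The upstream sequences of 3 genes are shown because these genes are given in every library below. Ckm and Acta1 vary closely with the other muscle genes, and Myh4 less so. Whether sequence and level are linked was not tested. RefSeq (GRCm38.p6) start sites were used for 23 of the 31 genes, some with several sites, which gave 29 windows of 250 bases before a start. The other genes were left out of the search, so the motif counts below do not describe all 31 genes. The first sequence, at chr7:19410844-19411093 on the plus strand, belongs to Ckm, the muscle creatine kinase that regenerates ATP. The next belongs to Acta1, the actin of skeletal thin filaments, and lies at chr8:123894776-123895025 on the minus strand. The last comes from Myh4, the myosin heavy chain of the fastest fibres in mice, at chr11:67237562-67237811 on the plus strand. All are written 5′ to 3′ on the gene's strand and end at the base before the start site. Capitals mark the E-box, CANNTG, in Ckm and Myh4 and the CArG box in Acta1.
Ckm: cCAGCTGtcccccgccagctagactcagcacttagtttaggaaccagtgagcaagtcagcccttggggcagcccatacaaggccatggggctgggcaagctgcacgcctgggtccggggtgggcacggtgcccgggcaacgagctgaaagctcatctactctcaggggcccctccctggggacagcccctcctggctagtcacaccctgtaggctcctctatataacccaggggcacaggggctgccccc
Acta1: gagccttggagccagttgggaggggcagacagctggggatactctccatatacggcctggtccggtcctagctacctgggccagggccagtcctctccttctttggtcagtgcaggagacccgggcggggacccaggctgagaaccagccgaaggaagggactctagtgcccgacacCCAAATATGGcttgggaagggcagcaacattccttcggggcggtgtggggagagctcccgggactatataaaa
Myh4: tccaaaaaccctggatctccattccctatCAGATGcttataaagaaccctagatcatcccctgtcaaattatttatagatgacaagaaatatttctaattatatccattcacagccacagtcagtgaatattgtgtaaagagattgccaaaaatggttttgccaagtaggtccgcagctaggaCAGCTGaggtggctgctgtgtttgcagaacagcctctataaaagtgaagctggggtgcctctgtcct
The E-box is the motif bound by the MyoD family of muscle regulators, and the CArG box is bound by serum response factor. Searched on both strands, an E-box was present in 23 of the 29 windows of these genes and in 66.2% of 32851 windows of the same length over all genes, so that this short motif is common everywhere. A CArG box was present in 4 of the 29 windows and in 1.47% of all windows. The other motifs searched were a MEF2 site, in 4 of the 29 and 2.92% of all windows, and TATAAA, in 5 and 12.4%. Several windows can belong to 1 gene, so these are counts of windows and not of genes. The Acta1 window also held 2 E-boxes and the Myh4 window also held 1 CArG box, none overlapping. A match of letters is a description of the window and does not show that a factor binds there.

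Among thick filament genes, the fast-fibre forms carried nearly all of the signal. The 6 genes of this class summed to 25 CPM in KO-Guanabenz 1 and to 144 CPM in WT-Clonidine 1. Myh4 was at 35.6, 15.6 and 13.2 CPM in KO-Clonidine and 62.1, 44.3 and 45.4 CPM in WT-Clonidine tumours. It was at 7.52, 6.57 and 17.4 CPM in KO-Guanabenz and 28.8, 9.39 and 23.9 CPM in WT-Guanabenz tumours, and at 8.79, 33.2 and 37.5 CPM in KO-Control and 14.0, 20.9 and 10.7 CPM in WT-Control tumours. The WT-Clonidine libraries were the highest 3 of the 18 for Myh4 and did not overlap with any other group. The share of all genes for which a group stood apart in this way was not counted. Myh1, the myosin of intermediate fast fibres, ranged over 6.31 to 57.5 CPM, and Myh2, the myosin of fast oxidative fibres, over 4.30 to 17.1 CPM. The fast light chains Myl1 and Mylpf, which stiffen and regulate the myosin lever arm, ranged over 3.05 to 16.8 CPM and 3.50 to 17.6 CPM. Myh7, the myosin of slow fibres, was at 0.700, 0.269 and 0.283 CPM in KO-Clonidine, 0.264, 0.276 and 0.434 CPM in WT-Clonidine, 0.327, 0.215 and 0.148 CPM in KO-Guanabenz, 0.276, 0.249 and 0.290 CPM in WT-Guanabenz, 0.365, 0.551 and 0.145 CPM in KO-Control and 0.223, 0.401 and 0.412 CPM in WT-Control tumours. Those Myh7 values came from 13 to 199 reads a library, and all groups overlapped.

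The 3 fast myosins are close copies, so their separate values are uncertain. Their coding sequences lie side by side on the plus strand of chromosome 11, and were 90.1% identical between Myh4 and Myh1, 88.1% between Myh4 and Myh2 and 91.0% between Myh1 and Myh2. The first 90 coding bases, from the GENCODE M21 transcripts of GRCm38, are shown to let the likeness be seen, with capitals at the 7 positions where the 3 genes are not all alike. These bases span chr11:67240624-67240713 in Myh4, chr11:67201882-67201971 in Myh1 and chr11:67173116-67173205 in Myh2.
Myh4: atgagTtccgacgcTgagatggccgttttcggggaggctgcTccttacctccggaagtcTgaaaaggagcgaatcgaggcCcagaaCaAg
Myh1: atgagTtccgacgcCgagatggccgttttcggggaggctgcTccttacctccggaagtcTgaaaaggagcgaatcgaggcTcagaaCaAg
Myh2: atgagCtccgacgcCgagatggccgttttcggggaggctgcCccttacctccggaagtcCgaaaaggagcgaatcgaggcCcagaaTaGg
Of all 31-base words in its transcripts, Myh4 shared 23.7%, Myh1 32.8% and Myh2 32.3% with another of the 31 genes, and each also shared 15.7% to 19.8% with the neonatal myosin Myh8. Reads from such words were divided between genes by the authors' estimation. Myh7 likewise shared 30.5% of its words with the heart myosin Myh6, which had no count in 7 libraries and at most 0.0304 CPM. Of the other genes, Acta1 shared most, 3.72% with Actb. The strand of the reads was not given, and the spans of 16 of the 31 genes, introns included, overlap another annotated gene. How many of these overlaps lie within transcript sequences, where reads could not be told apart, was not measured.

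Thin filament genes followed a common pattern, apart from the slow troponins. Acta1 was at 70.7, 46.9 and 24.0 CPM in KO-Clonidine and 80.2, 67.3 and 41.9 CPM in WT-Clonidine tumours. It was at 14.8, 32.8 and 41.5 CPM in KO-Guanabenz and 53.5, 44.7 and 41.1 CPM in WT-Guanabenz tumours, against 46.8, 64.3 and 69.0 CPM in KO-Control and 66.0, 86.1 and 44.7 CPM in WT-Control tumours. KO-Guanabenz did not overlap with KO-Control and did overlap with WT-Guanabenz. Tnnt3, the fast troponin T that ties troponin to tropomyosin, was at 29.0, 22.1 and 12.5 CPM in KO-Clonidine and 34.9, 31.03 and 30.1 CPM in WT-Clonidine tumours. It was at 6.27, 16.0 and 17.0 CPM in KO-Guanabenz and 27.8, 20.7 and 23.6 CPM in WT-Guanabenz tumours, with 21.7, 27.5 and 29.6 CPM in KO-Control and 30.02, 42.0 and 16.3 CPM in WT-Control tumours. For Tnnt3 the KO libraries lay below the WT libraries under clonidine and under guanabenz, with no overlap, while the control groups overlapped. The inhibitory subunit Tnni2 ranged over 5.33 to 17.0 CPM, the calcium-binding subunit Tnnc2 over 2.61 to 19.3 CPM and Neb, the giant protein that runs along the thin filament, over 3.06 to 12.7 CPM.

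The slow troponins did not share this pattern. Tnnt1, slow troponin T, was at 1.40, 1.26 and 0.906 CPM in KO-Clonidine, 1.02, 1.05 and 1.06 CPM in WT-Clonidine, 0.982, 1.11 and 1.25 CPM in KO-Guanabenz, 1.23, 1.11 and 1.17 CPM in WT-Guanabenz, 0.836, 1.40 and 1.11 CPM in KO-Control and 1.03, 1.08 and 1.43 CPM in WT-Control tumours. WT-Clonidine lay just below WT-Guanabenz for Tnnt1, by less than the spread within several other groups, and the library with the least fast muscle signal, KO-Guanabenz 1, was not the lowest for Tnnt1. Tnni1, the slow inhibitory subunit, ranged over 0.263 to 1.13 CPM. Summed, the 12 fast-fibre genes ranged 5.67-fold over the 18 libraries, between 48.9 and 277 CPM, and the 3 slow-fibre genes 1.75-fold, between 1.70 and 2.99 CPM. Tnnt1 had the highest level of the 3 slow genes and weighed most in their sum. Singly, on the scale of log2 CPM with a prior count, Tnnt1 ranged 1.695-fold, Tnni1 4.12-fold and Myh7 4.46-fold. The slow genes had as few as 13 reads in a library.

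At the Z-disc, the crosslinker Actn2 ranged over 2.84 to 7.97 CPM and its fast-fibre form Actn3 over 1.35 to 10.5 CPM. Myoz1, a Z-disc protein that binds calcineurin, ranged over 0.877 to 3.11 CPM, and Ldb3, which stabilises the disc, over 0.995 to 3.71 CPM. Tcap, which caps the end of titin, ranged over 1.27 to 7.46 CPM, and Myot, an actin-bundling protein, over 0.793 to 3.32 CPM. Ttn, the titin spring, was the most uneven of the Z-disc and titin genes, at 1.72, 8.04 and 2.04 CPM in KO-Clonidine and 11.9, 7.66 and 9.21 CPM in WT-Clonidine tumours. It was at 1.98, 4.45 and 6.92 CPM in KO-Guanabenz and 18.7, 15.4 and 5.84 CPM in WT-Guanabenz tumours, and at 4.85, 7.01 and 6.99 CPM in KO-Control and 11.0, 12.5 and 7.88 CPM in WT-Control tumours. KO-Control lay below WT-Control without overlap for Ttn, while the other 2 KO and WT pairs overlapped. The share of all genes without overlap was not counted for the control groups.

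Among calcium handling genes, Atp2a1, the fast calcium pump that refills the sarcoplasmic reticulum, was at 27.3, 16.9 and 12.4 CPM in KO-Clonidine and 43.2, 37.5 and 30.1 CPM in WT-Clonidine tumours. It was at 7.03, 10.0 and 22.7 CPM in KO-Guanabenz and 28.2, 21.3 and 18.6 CPM in WT-Guanabenz tumours, and at 22.5, 24.99 and 30.1 CPM in KO-Control and 24.7, 36.01 and 14.1 CPM in WT-Control tumours. The KO-Clonidine libraries were all below the WT-Clonidine libraries. Pvalb, the calcium buffer of fast fibres, had the widest range of the 31 genes, 0.812 to 9.49 CPM, or 11.5-fold on the scale of log2 CPM with a prior count. The voltage sensor Cacna1s ranged over 0.471 to 2.60 CPM, the release channel Ryr1 over 2.27 to 8.38 CPM, the calcium store protein Casq1 over 0.838 to 4.76 CPM and Trdn, which links store and channel, over 1.03 to 5.31 CPM.

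Among genes of energy supply, Ckm was at 21.4, 11.7 and 7.45 CPM in KO-Clonidine and 25.2, 19.8 and 20.4 CPM in WT-Clonidine tumours. It was at 5.09, 9.21 and 13.3 CPM in KO-Guanabenz and 15.4, 13.8 and 11.9 CPM in WT-Guanabenz tumours, and at 13.9, 19.2 and 21.7 CPM in KO-Control and 17.5, 24.8 and 9.03 CPM in WT-Control tumours. For Ckm, KO-Guanabenz lay below KO-Control without overlap, and the KO and WT groups overlapped under each treatment. Mb, the oxygen-storing myoglobin of oxidative fibres, was at 3.95, 2.99 and 1.42 CPM in KO-Clonidine and 5.92, 5.91 and 2.48 CPM in WT-Clonidine tumours. It was at 1.65, 3.97 and 3.73 CPM in KO-Guanabenz and 3.16, 7.09 and 2.71 CPM in WT-Guanabenz tumours, and at 6.02, 4.83 and 5.99 CPM in KO-Control and 8.08, 10.5 and 7.01 CPM in WT-Control tumours. Both clonidine groups and KO-Guanabenz lay below the controls of their genotype for Mb, without overlap, and KO-Control lay below WT-Control. Of all tested genes, 10.5% had every KO-Guanabenz library below every KO-Control library. That share was not counted for the other pairs named for Mb, so their separation cannot be set against it. The glycolytic enzyme Eno3, at 12.7 to 22.4 CPM, was the steadiest of the energy genes, while glycogen phosphorylase Pygm ranged over 1.18 to 4.20 CPM and the mitochondrial creatine kinase Ckmt2 over 0.0884 to 0.925 CPM.

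**Figure D2:**
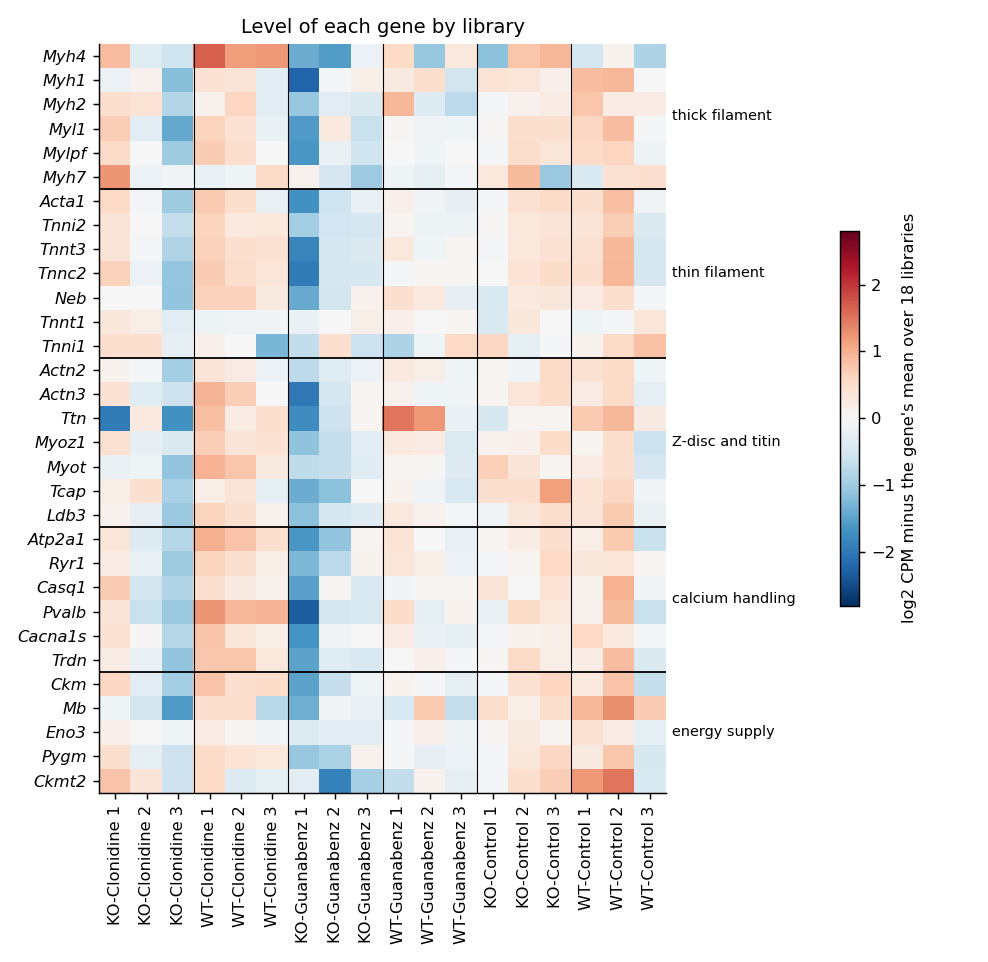
Level of each of the 31 genes (rows, by role) in each of the 18 libraries (columns), as log2 CPM minus the gene's mean over the libraries; red is above and blue below that mean. KO-Guanabenz 1 and KO-Clonidine 3 are below the mean in all rows, except for Myh7 in KO-Guanabenz 1, and Myh4 is reddest in the WT-Clonidine columns.

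Scaled to transcript length, the most abundant of the 31 was Acta1 at 35.98 CPM per kilobase over the 18 libraries, followed by Tnnt3 at 22.6, Tnnc2 at 15.8, Mylpf at 15.0 and Tnni2 at 14.3 CPM per kilobase. Ttn at 0.0749 and Myh7 at 0.0520 CPM per kilobase were lowest. The longest coding transcript of each gene was used, which understates genes whose muscle form is shorter.

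Most of the genes varied together from library to library, and over a wide range. The median gene ranged 5.07-fold over the 18 libraries, against 1.48-fold for the median of all tested genes. Its SD within groups was 0.53 on the log2 scale, against 0.14 for all tested genes. As a description over 18 libraries, the correlation of each gene's log2 CPM with the mean of the other 30 had a median Pearson r of 0.90 and was at least 0.9 for 15 genes. Without the 2 libraries farthest from the median level, KO-Guanabenz 1 and KO-Clonidine 3, the median r was 0.79, and within groups it was 0.88. Acta1 at 0.98 and Ldb3 at 0.98 were closest to the shared pattern. The slow-fibre genes Tnnt1, Tnni1 and Myh7 were farthest from it, with r of 0.20, 0.18 and 0.09, and Ttn and Ckmt2 stood between, with r of 0.58 for each. These values share the library, its depth and its scaling, so they are no test. KO-Guanabenz 1 was the lowest library for 22 of the 31 genes, and WT-Control 2 and WT-Clonidine 1 were the highest for 12 and 11 genes.

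Genes outside the 31 with the most similar pattern were taken by highest r with the mean of the 31 among 12662 tested genes of sufficient level. The nearest 20 included Eef1a2, Myom2, Des, Cmya5, Car3, Nrap, Ndrg2, Mybpc2, Trim72, Myo18b, Pdlim3, Pgam2, Mybpc1, Klhl41, Hrc, Atp1b1, Ankrd23, Mylk2 and Cryab, and r over the 20 lay between 0.88 and 0.97. Of these, 10 were in a list of 56 other muscle genes, among them Des, the intermediate filament of muscle, and Myom2, an M-band protein. An r of at least 0.8 was reached by 32 of the 12662 genes, 12 of which were among the 30 listed muscle genes of sufficient level. The median r over those 30 genes was 0.71.

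The largest difference among the treatment comparisons was between KO-Guanabenz and KO-Control. All 31 genes had lower fitted levels in KO-Guanabenz tumours, with a median log2 fold change of -0.87, against -0.01 over all tested genes. In 17 of the 31 genes every KO-Guanabenz library lay below every KO-Control library, which held for 10.5% of all tested genes. By edgeR's quasi-likelihood test with Benjamini-Hochberg adjustment over all tested genes, none of the 31 was called at adjusted p under 0.05, with 0.0124% of all genes called. At an unadjusted p under 0.05 the count was 20 of 31, against 15.1% of all genes, and DESeq2 called 4 of the 31 and 2.75% of all genes, limma-voom 1 of the 31 and 2.13%. The smallest p-values belonged to Tcap, with a log2 fold change of -1.44 (SE 0.37, adjusted p = 0.121), Tnni2, with -0.87 (SE 0.25, adjusted p = 0.145), and Eno3, with -0.46 (SE 0.14, adjusted p = 0.157). Tcap was at 1.27, 1.503 and 3.38 CPM in KO-Guanabenz and 4.59, 4.64 and 7.46 CPM in KO-Control tumours. The comparison of KO-Clonidine with KO-Control uses these control libraries too, so their values enter both.

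The difference was smaller without KO-Guanabenz 1. Without KO-Guanabenz 1 the unadjusted count was 7 of 31, against 8.88% of all genes, and the median log2 fold change was -0.64. The groups did not overlap for 17 genes then, against 13.0% of all genes. Leaving out a library can only keep or raise a count without overlap, here and below, so such counts do not test whether a difference persists. Without KO-Guanabenz 3 the median was -1.06 and edgeR called 1 gene, Tcap, and without KO-Control 3 the unadjusted count was 12, against 11.1% of all genes. Over the 18 fits that left out 1 library, edgeR called 0 to 85 of all genes in this comparison. The count without overlap was 26 without KO-Guanabenz 3 (19.1% of all genes). KO-Guanabenz 1 was also the lowest library for 6 of 8 adipocyte markers, 7 of 10 skin epidermis markers and 4 of 8 smooth muscle and pericyte markers. Its epidermal keratins Krt5 and Krt14 were at 3.64 and 4.03 CPM, against averages of 40.7 and 40.1 CPM over all libraries. The adipocyte list summed to 29.9 to 58.9 CPM in KO-Guanabenz and 42.0 to 66.1 CPM in KO-Control tumours, with lower fitted levels for 7 of 8 genes (median log2 fold change -0.69, 0 of 8 called). The skin list summed to 41.9 to 204 CPM in KO-Guanabenz and 84.8 to 208 CPM in KO-Control tumours, and the smooth muscle and pericyte list to 253 to 319.7 CPM in KO-Guanabenz and 245 to 274 CPM in KO-Control tumours. Of the 10 skin genes, 6 had lower and 4 had higher fitted levels (median log2 fold change -0.115, 0 called). The part of these tissues in the muscle difference was not tested.

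**Figure D3:**
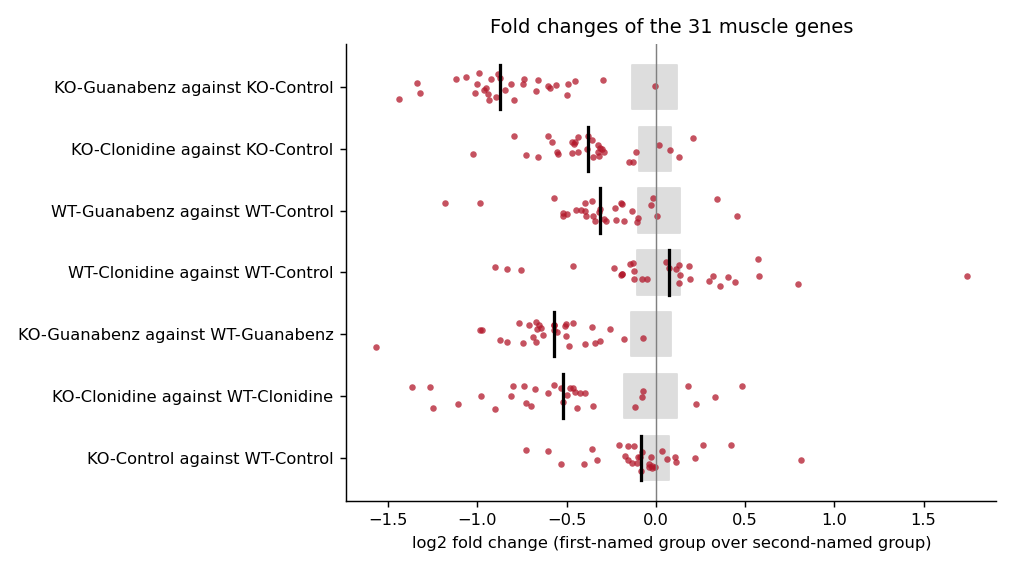
Log2 fold change of each of the 31 genes (points) in 7 comparisons, the first-named group over the second; the black line is the median of the 31 and the grey band spans the quartiles of all tested genes. The points lie furthest left for KO-Guanabenz against KO-Control, with a median of -0.87, and centre near 0 for WT-Clonidine against WT-Control and KO-Control against WT-Control.

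Between genotypes under clonidine, 27 of the 31 genes had lower fitted levels in KO-Clonidine tumours than in WT-Clonidine tumours, with a median log2 fold change of -0.52, against -0.01 over all genes. Myot was the one gene called by edgeR: it fell to 1.501, 1.56 and 0.793 CPM in KO-Clonidine, against 3.32, 2.89 and 2.03 CPM in WT-Clonidine tumours, a log2 fold change of -1.11 (SE 0.28, adjusted p = 0.0489). As 2.5% of all genes were called in this comparison, 1 of 31 is near the background. The Myot call was lost in 15 of the 18 fits that left out 1 library; it was kept without WT-Guanabenz 3, WT-Control 2 or WT-Control 3, which are in neither group. Pvalb had a log2 fold change of -1.37 (SE 0.44, adjusted p = 0.103) and Trdn one of -0.90 (SE 0.34, adjusted p = 0.162). Every KO-Clonidine library lay below every WT-Clonidine library for 8 genes (Tnnt3, Myh4, Neb, Atp2a1, Pvalb, Myot, Ldb3 and Trdn), while 12.8% of all genes did so. At an unadjusted p under 0.05 there were 9 of 31, against 19.6% of all genes; DESeq2 called 1 of the 31 and 7.12% of all genes, and limma-voom 7 of the 31 and 7.85%.

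Single libraries changed these counts. Without KO-Clonidine 3 the median log2 fold change was -0.25 and 2 of 31 genes had an unadjusted p under 0.05, against 14.5% of all genes. Without KO-Clonidine 1, the library of its group with the most muscle signal, the median was -0.89, the unadjusted count was 19 (16.3% of all genes) and 18 genes had groups without overlap (18.2% of all genes). The unadjusted count was 3 without WT-Clonidine 1 (16.5% of all genes), and 13 genes had no overlap without WT-Clonidine 3 (17.9%). Red blood cell genes moved with the same groups: the 4 measured genes summed to 405 to 1614 CPM in KO-Clonidine and 88.8 to 177 CPM in WT-Clonidine tumours, highest in KO-Clonidine 3. That library also had the second lowest skin sum of all, 53.3 CPM. Over the lists, 8 of 10 skin epidermis genes (median log2 fold change -0.58) and 6 of 8 adipocyte genes (median -0.27) had lower fitted levels in KO-Clonidine, with 0 called in each, while 5 of 8 smooth muscle and pericyte genes had higher ones and 2 of the 8 were called. The 4 measured Y-linked genes Ddx3y, Eif2s3y, Uty and Kdm5d summed to 1.82 to 2.64 CPM in KO-Clonidine and 3.07 to 32.1 CPM in WT-Clonidine tumours. Whether any of these had a part in the muscle values was not tested.

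Under guanabenz, all 31 genes had lower fitted levels in KO-Guanabenz than in WT-Guanabenz tumours, with a median log2 fold change of -0.57, against -0.01 over all genes. None was called by edgeR, with 0.0186% of all genes called, and DESeq2 and limma-voom called 0 as well, with 0.0868% and 0.0124% of all genes. There were 7 of 31 at an unadjusted p under 0.05, against 8.16% of all genes. The groups did not overlap for 9 genes (Tnni2, Tnnt3, Tnnc2, Mylpf, Actn2, Pvalb, Eno3, Ldb3 and Trdn), against 6.06% of all genes. The smallest p-values were those of Ttn, with a log2 fold change of -1.57 (SE 0.53, adjusted p = 0.554), Ldb3, with -0.74 (SE 0.30, adjusted p = 0.57), and Tnnt3, with -0.87 (SE 0.36, adjusted p = 0.574). Without KO-Guanabenz 1 the median was -0.36 and the unadjusted count was 1 of 31, against 4.62% of all genes. That count was 17 without KO-Guanabenz 3 (10.9% of all genes), 2 without WT-Guanabenz 1 (9.39%) and 13 without KO-Clonidine 3 (8.28%), which enters only the shared spread. The count without overlap was 22 without KO-Guanabenz 3 (14.0% of all genes) and 17 without WT-Guanabenz 3 (12.8%). Adipocyte and skin genes had lower fitted levels in the same comparison: 8 of 8 adipocyte genes (median log2 fold change -0.55) and 9 of 10 skin epidermis genes (median -0.54), with 0 called in each. Their part in the muscle values was not tested.

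Of the 3 genotype comparisons, that between controls had the median nearest 0. KO-Control against WT-Control had a median log2 fold change of -0.08, with lower fitted levels for 23 of 31 genes. None was called, with 0.0062% of all genes called, and 0 of 31 had an unadjusted p under 0.05, against 3.68% of all genes, while DESeq2 and limma-voom also called 0, with 0.105% and 0.0062% of all genes. Myh4 had a log2 fold change of 0.82 (SE 0.52, adjusted p = 1), Mb one of -0.60 (SE 0.42, adjusted p = 1) and Ttn one of -0.73 (SE 0.52, adjusted p = 1). The median was 0.12 without WT-Control 2, and the unadjusted count was 1 without WT-Control 3 (4.16% of all genes) or without KO-Control 1 (5.69%). The median was -0.28 without WT-Control 3. Skin epidermis genes had lower fitted levels in KO-Control for 6 of 10 (median -0.03) and adipocyte genes for 5 of 8 (median -0.06), with 0 called.

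Averaging the KO and WT difference over the 3 treatments was a comparison chosen once values were known. In it 29 of 31 genes were lower in KO tumours, with a median log2 fold change of -0.39, against -0.01 over all genes. EdgeR called none of the 31 and 0.416% of all genes; the unadjusted count was 13 of 31, against 17.4% of all genes, and DESeq2 called 2 of the 31 and 3.73% of all genes, limma-voom 1 of the 31 and 2.24%. Ttn had a log2 fold change of -1.19 (SE 0.30, adjusted p = 0.079), Ldb3 one of -0.52 (SE 0.17, adjusted p = 0.139) and Pvalb one of -0.79 (SE 0.26, adjusted p = 0.139). Without either guanabenz group the median was -0.30 and 4 genes had an unadjusted p under 0.05, against 14.4% of all genes. The unadjusted count was 22 without KO-Clonidine 1 (16.3% of all genes) and 21 without KO-Guanabenz 3 (17.1%). Other tissues moved in it too: 10 of 10 skin epidermis genes (median -0.28) and 7 of 8 adipocyte genes (median -0.25) had lower fitted levels in KO tumours, and 4 of 4 red blood cell genes higher ones (median 1.03), with 0 called in each list.

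Clonidine in KO tumours gave a median log2 fold change of -0.38 against KO-Control, with lower fitted levels for 27 of 31 genes. None was called by edgeR (0.0186% of all genes were), DESeq2 (0.18%) or limma-voom (0.0186%), and 2 of 31 had an unadjusted p under 0.05, against 5.52% of all genes. Myot had a log2 fold change of -0.80 (SE 0.29, adjusted p = 0.865), Mb one of -1.03 (SE 0.43, adjusted p = 0.9) and Tcap one of -0.73 (SE 0.36, adjusted p = 0.931). Without KO-Clonidine 3 the median was -0.10 and the unadjusted count 0 (3.73% of all genes), without KO-Clonidine 1 that count was 11 (5.36%) and without KO-Clonidine 2 it was 4 (7.43%). It was 1 without KO-Control 1 (8.8%) or KO-Control 3 (3.21%). The median was -0.72 without KO-Clonidine 1, and with the KO-Guanabenz libraries counted as KO-Control, after their treatment entry, it was -0.04. In the same comparison 4 of 4 red blood cell genes had higher fitted levels (median log2 fold change 1.91). Skin epidermis genes were lower for 8 of 10 (median -0.19), and adipocyte genes higher for 6 of 8 (median 0.02). All 4 measured Y-linked genes were lower (median -4.94). They summed to 1.82 to 2.64 CPM in KO-Clonidine and 2.39 to 46.8 CPM in KO-Control tumours. None of these genes was called, and their part in the muscle values was not tested.

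Guanabenz in WT tumours gave a median log2 fold change of -0.32 against WT-Control, with lower fitted levels for 28 of 31 genes. EdgeR called 0 of the 31 and 0% of all genes, DESeq2 and limma-voom called 0 of the 31 and 1.07% and 0.0372% of all genes, and 2 of 31 had an unadjusted p under 0.05, against 11.4% of all genes. Ckmt2 had a log2 fold change of -1.18 (SE 0.49, adjusted p = 0.383), Mb one of -0.99 (SE 0.42, adjusted p = 0.393) and Tnni2 one of -0.34 (SE 0.25, adjusted p = 0.625). The median was -0.06 without WT-Control 2 and -0.44 without WT-Control 3. Against WT-Control, 9 of 10 skin epidermis genes (median 0.38) and 4 of 4 red blood cell genes (median 0.38) had higher fitted levels. Adipocyte genes were lower for 5 of 8 (median -0.10), with 0 called in each list. Between the drugs in WT tumours, the median of WT-Clonidine over WT-Guanabenz was 0.38, with higher fitted levels in WT-Clonidine for 28 of 31 genes. EdgeR called 0 of the 31 and 0% of all genes, DESeq2 and limma-voom called 0 and 0.0248% and 0.0062% of all genes, and 2 of 31 had an unadjusted p under 0.05, against 5.05% of all genes. Myot had a log2 fold change of 0.77 (SE 0.28, adjusted p = 0.957), Myh4 one of 1.29 (SE 0.52, adjusted p = 0.957) and Pvalb one of 0.89 (SE 0.44, adjusted p = 0.957). The doses of both drugs were not given, so they may not be matched.

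In the comparison of WT-Clonidine with WT-Control, muscle genes lay on both sides of 0, and Myh4 stood apart. The median log2 fold change against WT-Control was 0.08, with higher fitted levels for 17 and lower fitted levels for 14 of the 31 genes. EdgeR called 0 of the 31 and 0% of all genes, 1 of 31 had an unadjusted p under 0.05 against 12.9% of all genes, DESeq2 called 0 of the 31 and 2.19% of all genes, and limma-voom 3 of the 31 and 4.79%. The unadjusted one was Myh4, with a log2 fold change of 1.74 (SE 0.53, adjusted p = 0.185), or 1.86 and an adjusted p of 0.0249 by limma-voom. Myot had a log2 fold change of 0.58 (SE 0.28, adjusted p = 0.396) and Mb one of -0.83 (SE 0.42, adjusted p = 0.416). The sign of the median rested on single controls: it was -0.14 without WT-Control 3 and 0.24 without WT-Control 2. Skin epidermis genes had higher fitted levels for 9 of 10 (median 0.43) and adipocyte genes for 6 of 8 (median 0.34). All 4 red blood cell genes had lower ones (median -1.05), with 0 called in each list.

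As a share of the summed CPM of Myh4, Myh1 and Myh2, a measure chosen after the values were seen and given with no test, Myh4 took 55.7, 45.8 and 59.2% in WT-Clonidine and 16.7, 23.6 and 20.9% in WT-Control tumours, which did not overlap. It took 35.2, 16.1 and 47.5% in WT-Guanabenz tumours, a wider spread that reached into both. In KO tumours the shares were 47.4, 25.9 and 42.2% with clonidine, 41.5, 15.3 and 29.96% with guanabenz and 15.4, 41.0 and 46.4% in controls, all overlapping. Mb as a percentage of Ckm, chosen in the same way, was 23.5, 29.8 and 12.1% in WT-Clonidine and 46.1, 42.5 and 77.7% in WT-Control tumours. It was 20.5, 51.4 and 22.8% in WT-Guanabenz tumours, which reached into the ranges of both. In KO tumours it was 18.5, 25.5 and 19.0% with clonidine, 32.4, 43.1 and 28.1% with guanabenz and 43.2, 25.1 and 27.6% in controls, and clonidine overlapped with controls. Whether these ratios vary with the amount of muscle RNA was not tested.

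**Figure D4:**
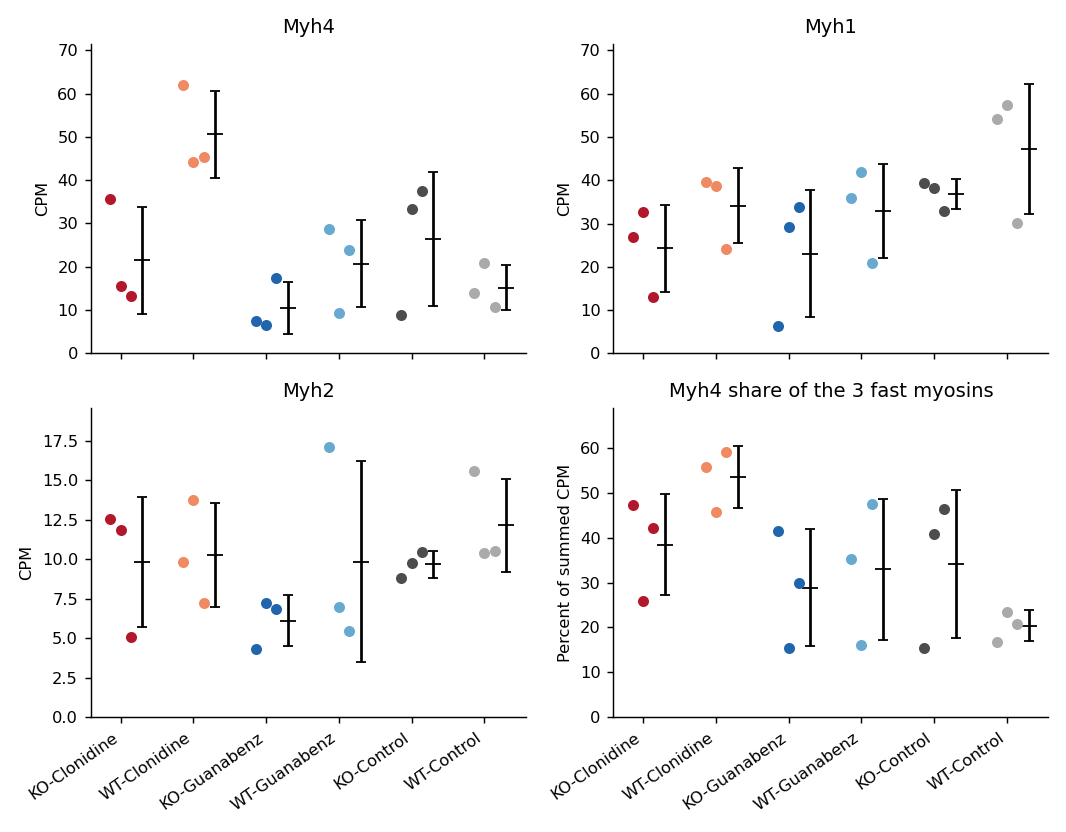
Levels of the fast myosin heavy chains Myh4, Myh1 and Myh2 in CPM and the share of Myh4 in their sum in percent (vertical axes), by group; points are libraries and black bars the group mean with its SD (n = 3). The WT-Clonidine libraries lie highest for Myh4, and their Myh4 share of 45.8% to 59.2% lies above the 16.7% to 23.6% of WT-Control.

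The effect of each drug was also compared between genotypes. For clonidine, the effect in KO minus the effect in WT had a median of -0.45 on the log2 scale, with 26 of 31 genes negative. It was -0.17 without WT-Control 3, -0.18 without KO-Clonidine 3 and -0.74 without KO-Clonidine 1, and 9 of 10 skin epidermis genes were negative too (median -0.53). EdgeR called 0 of the 31 and 0% of all genes, DESeq2 and limma-voom called 0 and 0.205% and 0.0124% of all genes, and 3 of 31 had an unadjusted p under 0.05, against 8.94% of all genes. Myot had a difference of -1.37 (SE 0.40, adjusted p = 0.403), Myh4 one of -2.07 (SE 0.73, adjusted p = 0.454) and Pvalb one of -1.35 (SE 0.62, adjusted p = 0.546). For guanabenz the median was -0.53, with 28 of 31 genes negative, and it was -0.83 without KO-Guanabenz 3. All 8 adipocyte genes (median -0.40) and 8 of 10 skin epidermis genes (median -0.54) were negative too. EdgeR called 0 of the 31 and 0.0062% of all genes, DESeq2 and limma-voom called 0 and 0.0806% and 0.0124% of all genes, and 2 of 31 had an unadjusted p under 0.05, against 5.71% of all genes. Myh4 had a difference of -1.79 (SE 0.74, adjusted p = 0.866), Myoz1 one of -0.93 (SE 0.41, adjusted p = 0.866) and Tcap one of -0.99 (SE 0.51, adjusted p = 0.881). Asked whether a gene differed anywhere among the 6 groups, edgeR called 0 of the 31 and 2.02% of all genes. In that test 14 of 31 had an unadjusted p under 0.05, against 19.2% of all genes, DESeq2 called 7 of the 31 and 11.8% of all genes, limma-voom 8 of the 31 and 9.23%, and the smallest adjusted p by edgeR was 0.081 for Myot, followed by Myh4 and Tnni2. The unadjusted count was 6 without KO-Guanabenz 1 (15.2% of all genes) and 22 without KO-Clonidine 1 (17.8%).

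Most of the other muscle genes listed went the way of the 31 where the 31 differed most. Of a list of 56 further muscle genes, 54 could be tested, and 50 had lower fitted levels in KO-Guanabenz than in KO-Control tumours (median log2 fold change -0.61, 0 called). In KO-Clonidine against WT-Clonidine 49 of the 54 were lower (median -0.56, 1 called, with 2.5% of all genes called). Between KO-Control and WT-Control the list split, with 25 higher and 29 lower in KO-Control (median -0.02). Single genes did not follow, such as Fbxo32, which was highest in KO-Guanabenz 1 at 11.1 CPM. The list summed to 92.3 to 134 CPM in KO-Guanabenz and 146 to 179 CPM in KO-Control tumours, and to 100 to 152 CPM in KO-Clonidine and 142 to 199 CPM in WT-Clonidine tumours. Genes of embryonic and regenerating muscle were low but present. All 10 of them together summed to at most 5.31 CPM, and 7 of the 10 passed the filter on low counts. The embryonic myosin Myh3 averaged 0.742 CPM and the neonatal Myh8 1.01 CPM, both with reads in every library. Of the 3 that did not pass, Pax7 of satellite cells was at 0 in 10 libraries, Mymx of fusing myoblasts in 7 and Myf5 in 2. The 7 heart genes summed to 6.64 to 16.3 CPM; Tnnt2 averaged 8.68 CPM and Tnni3 1.08 CPM, while Myh6 was at 0 in 7 libraries. The smooth muscle and pericyte list summed to between 233 and 319.7 CPM in all libraries. Smtn, Rgs5 and Acta2 carried most of this sum, with averages of 101, 93.7 and 60.6 CPM. Tagln ranged over 7.58 to 20.6 CPM, Cnn1 over 0.197 to 0.757 CPM and Lmod1 over 0.236 to 1.17 CPM, each lowest in KO-Guanabenz 1.

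**Figure D5:**
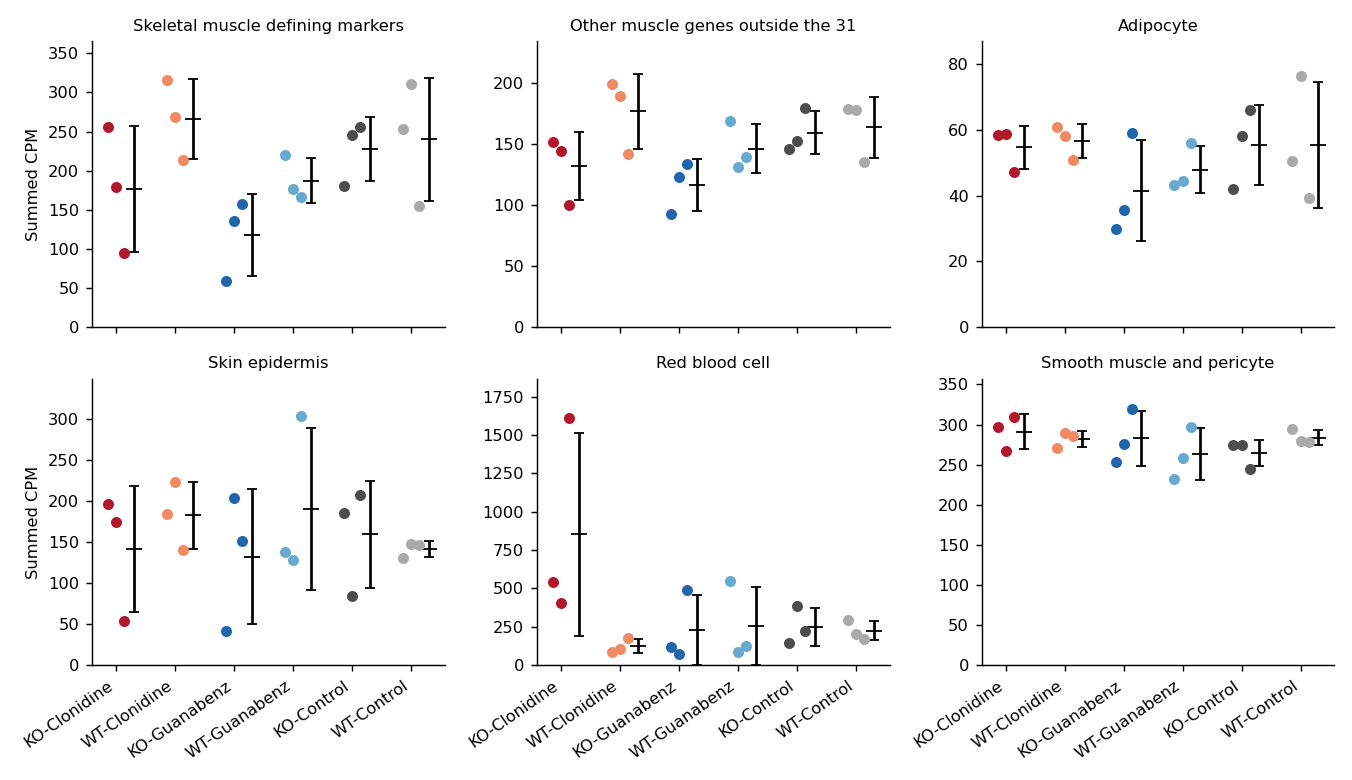
Summed level in CPM (vertical axes) of 6 marker lists by group; points are libraries and black bars the group mean with its SD (n = 3). KO-Guanabenz 1 is the lowest point for both muscle lists, adipocyte and skin, and KO-Clonidine 3 is the highest for red blood cell genes at 1614 CPM. The smooth muscle sum, carried mostly by Smtn, Rgs5 and Acta2, lies between 233 and 319.7 CPM.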

How the data were processed

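RNA was sequenced in 18 tumour libraries, 3 in each of 6 groups. Per the submitters' processing notes, Trim Galore 0.6.5, kallisto 0.46.0 and the GRCm38 build were used. The authors deposited one table of estimated counts per gene, which held whole numbers; the strand setting was not stated by the labels. Rows without a gene symbol took at most 0.022% of a library. Library totals were 54.7 to 491.1 in units of 1e6 (median 92.4). CPM values were computed here after TMM scaling. Genes were kept by filterByExpr, and edgeR 4.0.16 (R 4.3.3) quasi-likelihood tests were fitted over all 6 groups and 16125 genes, with Benjamini-Hochberg adjustment and a threshold of 0.05. The fit was tested on simulated data with large planted changes and genes that varied independently. That run checked the code and does not describe power for the muscle genes. Alternatives were DESeq2 1.42.0, limma 3.58.1 (voom with quality weights), no low-count filter, fits on the compared groups, other readings of the KO-Guanabenz libraries, a replicate block and leaving out each library. Levels are given in every library for Ckm, Acta1, Myh4, Tnnt3, Mb, Atp2a1, Tnnt1 and Myh7; fold changes are given for genes called and the 3 smallest p-values per comparison, and the 20 most similar other genes were taken by correlation, of which 1 is not reported here. Other values per library were chosen after they were seen. The genes, lists and tests were chosen with earlier results of these data known.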

Additional observations from a re-analysis of the deposited data

How the results depend on the processing

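Of the repeats of the muscle gene counts under other settings, 296 equalled the reported count and 31 differed, and no named gene reversed its direction. The reported count was 0 in every comparison except KO-Clonidine against WT-Clonidine. EdgeR called few genes of any kind in most comparisons, so repeats of 0 are a weak check. In KO-Guanabenz against KO-Control, DESeq2 called 4 (443 of all genes) and limma-voom 1 (343). Leaving out 1 library gave 0 to 1 (0 to 85 of all genes), the 1 being Tcap without KO-Guanabenz 3. For KO against WT averaged over treatments, DESeq2 called 2 (601) and limma-voom 1 (362). Leaving out 1 library gave 0 to 1 (7 to 111 of all genes), the 1 being Ttn without WT-Guanabenz 3 or KO-Clonidine 2. For any difference among the 6 groups, DESeq2 called 7 (1898) and limma-voom 8 (1488), and leaving out 1 library gave 0 to 1 (6 to 522). In WT-Clonidine against WT-Control limma-voom called 3 (773). In KO-Clonidine against WT-Clonidine limma-voom called 7 (1266), and leaving out 1 library gave 0 to 1 (1 to 517). The count was 0 with no low-count filter (273 of all genes), with the compared groups only (4), with KO-Guanabenz left out (220) and with KO-Guanabenz read as KO-Control (34). By edgeR, Myot had adjusted p-values of 0.0569, 0.111, 0.0715 and 0.122 in that order of settings. The median clonidine effect in KO minus that in WT was -0.88 by limma-voom and -0.03 with KO-Guanabenz read as KO-Control, and the guanabenz one was -0.97 by limma-voom. The cause of these changes was not tested.

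No pairing of libraries by replicate number was seen. Of 15 pairs of groups, 0 had all 3 correlations of same-numbered libraries above 0.1, with values between -0.33 and 0.25. By this measure 5 of 18 libraries correlated best with their own number. Low correlations over all genes cannot exclude that libraries with equal numbers shared a step. With the replicate block 1 muscle gene was called in KO-Clonidine against WT-Clonidine and 0 in the other comparisons; over all genes the block gave 333 calls against 403 in that comparison, and 158 against 326 for any difference among the groups.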
